A study of Mus musculus with 6 samples.

Results

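The 9 genes described here mark the lymphocyte lineages. They are *Ms4a1*, *Cd79a*, *Cd79b* and *Cr2* for B cells, *Cd3e*, *Cd3g*, *Cd4* and *Cd8a* for T cells, and *Ccr7*, which both lineages use. They were taken by symbol from the 46517 genes counted by RNA-seq in mouse inguinal white adipose tissue (IngWAT). The samples are 3 pools from *Hdac3* floxed mice and 3 pools from knockout mice (H3atKO), each pool holding RNA from 2 or 3 animals of one genotype. Both genotypes are on a background given as C57Bl6 in the labels and as C57Bl/6J in the study's methods, carry the floxed allele, ate chow and were between 5 and 9 months old. H3atKO mice also carry the B6;FVB-Tg(Adipoq-cre)1Evdr/J transgene, whose Cre is driven by the adiponectin promoter, a promoter of adipocytes. Spread between the pools is what every test below measures, and spread between animals within a pool is not seen.

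The inguinal fat pad holds a lymph node, in which B cells gather in follicles and T cells in the zone around them. Both enter the node through high endothelial venules and are drawn by chemokines that stromal cells make. White fat outside the node also has resident leukocytes, most of them macrophages with fewer T cells and few B cells. RNA from a pad can carry lymphocyte transcripts from the node, from the fat or from both, and whether the node was removed before extraction is not given in the sources used here. In bulk RNA, fewer cells of a type and less RNA per cell cannot be told apart.

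*Cd79a* and *Cd79b* encode the signalling pair of the B cell receptor, and *Cd3e* and *Cd3g* encode signalling chains of the T cell receptor complex. All 4 proteins carry the same kind of activation motif, with a pair of tyrosines each followed, after 2 further residues, by a leucine or isoleucine. The coding strand of each motif is shown because it is the sequence feature that both lineages share, although the genes differ in base composition as described further on. It was read from the longest protein-coding GENCODE transcript, and capitals mark the codons of the tyrosines and of the leucines or isoleucines. One match was found in each of these 4 genes and 0 in each of the other 5.
Cd79a: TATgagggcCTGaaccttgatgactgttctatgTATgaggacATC
Cd79b: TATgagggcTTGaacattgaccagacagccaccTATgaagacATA
Cd3e: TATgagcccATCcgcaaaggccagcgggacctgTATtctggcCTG
Cd3g: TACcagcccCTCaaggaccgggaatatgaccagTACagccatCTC

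Each stretch of 45 bases spans an intron in the genome (GRCm38). The first lies at chr7:24901296-24901469 on the plus strand and the second at chr11:106311867-106312012 on the minus strand. The T cell pair lies on the minus strand of chromosome 9, at chr9:44999549-45000440 for *Cd3e* and at chr9:44970735-44971268 for *Cd3g*.

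Of the 9 genes, 5 had an entry in the RefSeq promoter table for GRCm38.p6. The motif CAGGTG, which E proteins of the lymphoid lineages are known to bind, was searched on both strands in the 250 bases before the start. It was found for *Cd79a*, *Cr2* and *Cd3g* and not for *Cd3e* or *Cd8a*, and 17.2% of the 32851 promoters in the table hold it. The letters of an octamer (ATGCAAAT), an EBF site (CCCNNGGGA) and a TCF site (CTTTGAT) were in 0 of the 5 windows and in 1.60%, 5.60% and 3.21% of all promoters. One promoter of each lineage is printed with the motif in capitals on either strand, from chr7:24897247-24897380 (plus strand) and chr9:44980432-44980681 (minus strand). The 116 bases nearest the *Cd79a* start were left off because another transcript of the gene covers them.
Cd79a: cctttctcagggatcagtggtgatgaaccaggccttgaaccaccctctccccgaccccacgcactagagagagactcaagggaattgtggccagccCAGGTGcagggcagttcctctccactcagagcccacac
Cd3g: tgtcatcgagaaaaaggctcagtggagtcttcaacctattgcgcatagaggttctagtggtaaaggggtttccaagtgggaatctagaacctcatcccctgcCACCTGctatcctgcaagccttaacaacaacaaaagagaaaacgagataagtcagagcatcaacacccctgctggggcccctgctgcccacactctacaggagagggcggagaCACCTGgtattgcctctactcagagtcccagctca

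Counts on genes ranged from 23865507 to 35200685 per pool. Expression is given in cpm, the counts scaled to a common library size with TMM factors, and 3 counts correspond to between 0.0659 and 0.190 cpm. *Hdac3* itself was at 65.8 to 80.3 cpm in floxed and 12.9 to 27.4 cpm in H3atKO pools, and it fell by 1.83 on the log2 scale (adjusted p = 0.0213 from limma voom). The genotypes also differed in ways that touch every result below. Mitochondrial genes took 6.92% to 12.9% of the counts in floxed and 26.9% to 35.3% in H3atKO pools. Across genes, the rank correlation (Spearman's rho) of a pool's deviation from the mean of all pools with GC content ran from 0.0914 to 0.814 in floxed and from -0.723 to -0.434 in H3atKO pools, so the effects of GC content and of genotype cannot be told apart. For the 9 genes, floxed replicate 1 stood apart from the other floxed pools and H3atKO replicate 2 from the other H3atKO pools, and results are given with and without them.

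The B cell genes varied widely within each genotype. *Ms4a1* encodes CD20, a surface protein of mature B cells. It lies on chromosome 19 from 11249675 to 11266241 and had read counts of 748, 25 and 35 in the floxed pools, listed from replicate 1 to 3 as in every list of pool values here, and of 3478, 34 and 4913 in the H3atKO pools. On the cpm scale these were 16.4, 0.601 and 0.851 in floxed and 143, 1.73 and 311 in H3atKO pools. Floxed replicate 1 thus exceeded H3atKO replicate 2, and the genotypes overlapped.

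*Cr2* encodes complement receptor 2, found on mature B cells and on follicular dendritic cells of the lymph node (chromosome 1, 195136811 to 195176716). Its cpm values were 8.94, 0.144 and 0.170 in floxed and 73.3, 0.714 and 135 in H3atKO pools. The same 3 pools were high as for *Ms4a1*, in the same order, and *Cr2* amounted to between 0.200 and 0.544 counts per count of *Ms4a1* in every pool.

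The receptor chains had the same high and low pools but another order among the high ones. For *Cd79a* (chromosome 7, 24897381 to 24902197) the values were 23.6, 0.457 and 0.267 cpm in floxed and 13.4, 0.0510 and 4.49 cpm in H3atKO pools. Floxed replicate 1 was the highest pool, and H3atKO replicate 2 was the lowest, with a single count. H3atKO replicate 1 exceeded it 263-fold, with a 95% counting interval from 46.8 to 10401. *Cd79b* (chromosome 11, 106311341 to 106314762) was at 22.6, 1.15 and 1.43 cpm in floxed and at 31.2, 0.663 and 8.91 cpm in H3atKO pools. H3atKO replicate 3, the highest pool for *Ms4a1* and *Cr2*, was the lowest of the 3 high pools for both receptor chains.

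Among the T cell genes, *Cd3e* (chromosome 9, 44998740 to 45009627) was measured at 5.71, 0.769 and 0.535 cpm in floxed and at 7.99, 0.969 and 4.11 cpm in H3atKO pools. *Cd3g*, its neighbour on the same chromosome (44969572 to 44980431), was at 6.61, 1.59 and 0.972 cpm in floxed and at 33.3, 3.16 and 17.4 cpm in H3atKO pools. Both were highest in H3atKO replicate 1, and for both floxed replicate 3 was lowest. *Ms4a1* and *Cd3e* overlap an annotated antisense gene, and whether the counting used the strand of the reads is not given in the sources used here. *Cd3e* also overlaps *Gm48720*, a gene annotated on the same strand, which the strand of the reads would not separate.

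The coreceptors mark the helper and the cytotoxic T cells. *Cd4*, which some myeloid cells also express (chromosome 6, 124864692 to 124888221), was at 10.8, 1.11 and 1.43 cpm in floxed and 26.2, 2.45 and 20.5 cpm in H3atKO pools. *Cd8a*, which some dendritic cells share (chromosome 6, 71373427 to 71379173), was at 10.1, 1.49 and 0.608 cpm in floxed and 47.7, 5.35 and 53.1 cpm in H3atKO pools. The genotypes overlapped for both, since floxed replicate 1 was above H3atKO replicate 2. There were 0.424 to 1.35 counts of *Cd8a* per count of *Cd4* in floxed pools and 1.82 to 2.59 in H3atKO pools, so that this ratio did not overlap between the genotypes. It is taken on uncorrected counts, and the transcripts differ in GC content, at 47.2% for *Cd8a* and 52.0% for *Cd4*.

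*Ccr7* encodes the chemokine receptor that guides naive lymphocytes and mature dendritic cells into lymph nodes (chromosome 11, 99144196 to 99155077). It was measured at 7.42, 0.361 and 0.486 cpm in floxed and at 15.7, 0.306 and 5.25 cpm in H3atKO pools. Its order of the 6 pools was that of *Cd79b*. The 3 low pools lay within the counting error of one another, with 95% Poisson intervals of 0.202 to 0.595, 0.297 to 0.751 and 0.112 to 0.666 cpm.

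**Figure D1:**
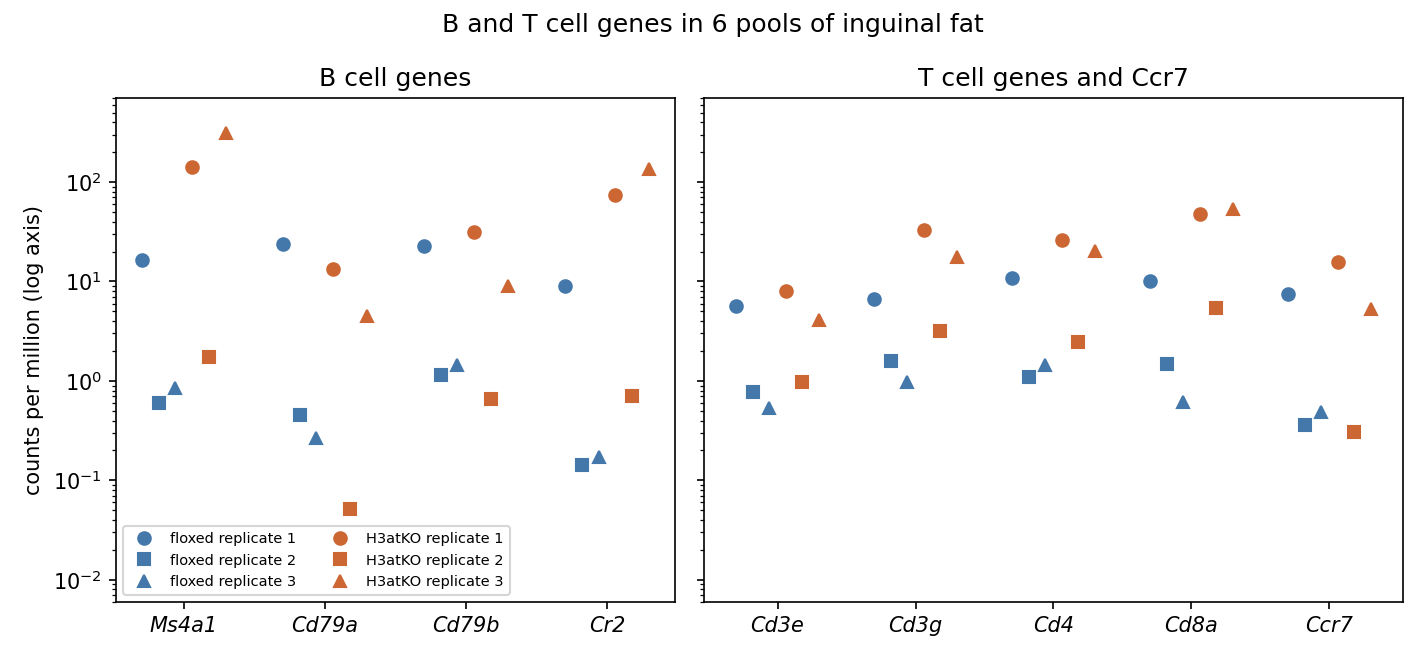
Expression in cpm (log axis) of 4 B cell genes (left) and of 4 T cell genes and *Ccr7* (right), with 1 point for each of 3 floxed and 3 H3atKO pools. Floxed replicate 1, H3atKO replicate 1 and H3atKO replicate 3 lie above the other pools for each of the 9 genes.

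For each of the 9 genes, floxed replicate 1, H3atKO replicate 1 and H3atKO replicate 3 were above the other pools, an order that was read from these values and that 4.04% of the 14967 tested genes had. Summed over the 9 genes, the counts were 5110, 319 and 278 in floxed and 9519, 302 and 8845 in H3atKO pools. The values of floxed and H3atKO pools overlapped for each of the 9 genes, whereas 51.7% of all tested genes did not overlap. The residual standard deviation within genotypes, on the log2 scale, ran from 1.60 for *Cd3g* to 3.73 for *Cr2*. Its median over all tested genes was 0.52 and its 90th percentile 1.27.

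The genotype comparison asks which genes differ after ablation of *Hdac3* in adipocytes. The fit called 0 of the 9 genes at an adjusted p under 0.05, against a background of 16.5% of the 14967 tested genes. At an unadjusted p under 0.05 it passed 2 of the 9 (*Cd3g* and *Cd8a*), against 43.8% of all genes, and edgeR's quasi-likelihood test also called 0 of the 9, against 31.2% of all genes. All 9 estimates were above 0, as were 47.5% of all estimates, with *Cd79a* close to 0.

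The largest estimates belonged to *Cr2*, at 4.84 on the log2 scale (standard error 2.75, adjusted p = 0.204 from limma voom), and to *Ms4a1*, at 4.31 (standard error 2.48, adjusted p = 0.208). Their 95% intervals ran from -1.58 to 11.3 and from -1.47 to 10.1, which include 0. For the receptor chains the log2 fold changes were 0.79 for *Cd79b* (standard error 1.60, adjusted p = 0.714) and 0.21 for *Cd79a* (standard error 2.28, adjusted p = 0.949). The 4 B cell genes were thus measured in the same pools with estimates more than 4 log2 units apart.

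The smallest adjusted p among the T cell genes, 0.0806 from limma voom, belonged to *Cd8a*, whose log2 fold change was 3.47 (standard error 1.26). *Cd3g* had 2.51 (standard error 1.05, adjusted p = 0.108), *Cd4* had 2.08 (standard error 1.16, adjusted p = 0.195) and *Cd3e* had 1.25 (standard error 1.08, adjusted p = 0.389). The estimate for *Ccr7* was 1.44 (standard error 1.64, adjusted p = 0.512).

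These calls depended on the fit, and also on whether pools were blocked by replicate number. The labels give this number and do not say what pools of the same number share. When pools of the same replicate number were blocked, limma voom called 5 of the 9 genes, each higher in H3atKO pools, against 24.8% of all genes called higher and 53.5% called in either direction. The adjusted p was 0.0153 for *Ms4a1*, 0.0230 for *Cr2*, 0.010 for *Cd3g*, 0.0255 for *Cd4* and 0.0206 for *Cd8a*. *Cd79a* turned to -0.16. When a correction for GC content was added to the block, 4 of the 9 were called higher, against 12.3% of all genes, and these were *Cd79b* (adjusted p = 0.0414), *Cd3g* (adjusted p = 0.0390), *Cd4* (adjusted p = 0.0285) and *Ccr7* (adjusted p = 0.0285). The estimates of the genes no longer called were 3.97 for *Ms4a1* (adjusted p = 0.0705), 3.85 for *Cr2* (adjusted p = 0.0936) and 3.02 for *Cd8a* (adjusted p = 0.0614). The called genes common to both fits were *Cd3g* and *Cd4*. With GC content taken from the longest transcript of any kind, which for *Cd3e* and *Cd3g* holds an intron, the blocked and corrected fit called 3 of the 9 higher, against 13.1% of all genes. Without a block, DESeq2 called 3 of the 9 higher, against 19.6%, and limma with sample quality weights called 5, against 26.7%.

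Floxed replicate 1 and H3atKO replicate 2 were picked from the values of these 9 genes, as the high floxed and the low H3atKO pool. Leaving out either one was thus bound to move the estimates upward, and calls made after it are not a separate test. Without floxed replicate 1, 0 of the 9 genes were called, where 149 of all genes were called higher and 90 lower. The log2 fold changes of the 9 then ran from 2.20 for *Cd79b* to 6.82 for *Cr2*. Without H3atKO replicate 2, 3 of the 9 were called higher, against 2.64% of all genes. They were *Ms4a1* (6.60, adjusted p = 0.0383 from limma voom), *Cr2* (7.15, adjusted p = 0.0415) and *Cd8a* (4.50, adjusted p = 0.0456). Leaving out any of the other 4 pools lowered all 9 estimates and left 0 of the 9 called. Over all genes, 1 was called higher and 0 lower without floxed replicate 2, and 2729 and 3828 without floxed replicate 3. These numbers were 199 and 47 without H3atKO replicate 1, and 87 and 20 without H3atKO replicate 3. Without H3atKO replicate 1, *Ccr7* went from 1.44 to 0.09, *Cd3e* from 1.25 to 0.50 and *Cd3g* from 2.51 to 1.71, while *Cd79a* and *Cd79b* went below 0, to -1.51 and -0.56. Without floxed replicate 2, *Ccr7* was at 0.66 and *Cd79a* at -0.62.

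Matching pools by replicate number showed where the differences lay. At number 1, where both pools were high, the log2 difference of H3atKO minus floxed was 3.12 for *Ms4a1* and 3.03 for *Cr2* but -0.82 for *Cd79a* and 0.46 for *Cd79b*. At number 2, where both pools were low, it was 1.52 and 2.24 for the first pair and -2.62 and -0.76 for the receptor chains. At number 3 the floxed pool was low and the H3atKO pool high for all 9 genes, so all 9 differences were positive by that order. They ran from 2.63 for *Cd79b* to 9.53 for *Cr2*. The H3atKO pool was above the floxed pool at all 3 numbers for 6 of the 9 genes, namely *Ms4a1*, *Cr2* and the 4 T cell genes, against 34.4% of all tested genes.

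The differences followed the GC content of the transcripts. The longest protein-coding transcript had a GC content of 40.6% for *Ms4a1* and 41.4% for *Cr2*, 47.1% for *Cd3g* and 47.2% for *Cd8a*, 50.5% for *Cd3e*, 52.0% for *Cd4*, 53.5% for *Ccr7*, 54.2% for *Cd79b* and 54.9% for *Cd79a*. Across these 9 genes, which were measured in the same libraries, Spearman's rho of the log2 difference with GC content was -0.95, -0.85 and -0.75 at numbers 1, 2 and 3. All tested genes with a known GC content gave -0.734, -0.660 and -0.607. After the GC correction the 9 genes gave values between -0.483 and -0.40 at the 3 numbers, whereas for the limma voom estimates rho went from -0.917 to -0.75.

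**Figure D2:**
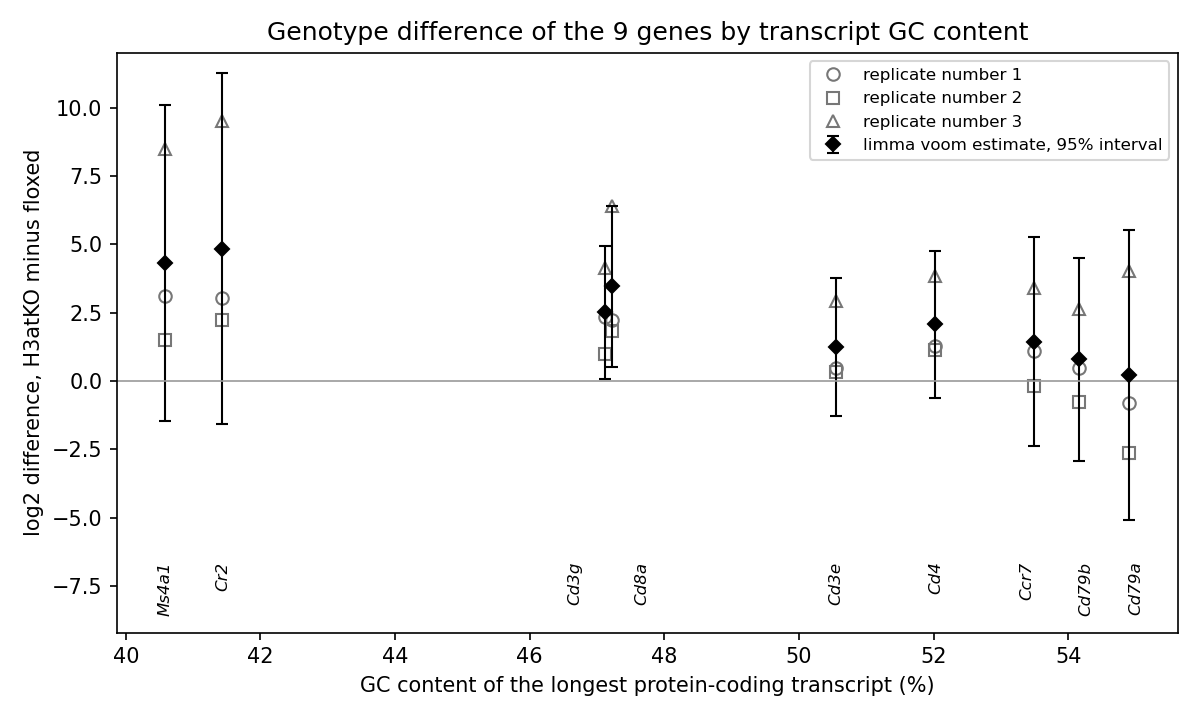
Difference in log2 expression, H3atKO minus floxed, of the 9 genes (vertical axis) against the GC content of the longest protein-coding transcript in percent (horizontal axis). Open symbols are the difference at each replicate number and diamonds the limma voom estimate with its 95% interval. The estimates fall from 4.31 for *Ms4a1*, at 40.6% GC, to 0.21 for *Cd79a*, at 54.9% GC, and 7 of the 9 intervals include 0.

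After that correction, the log2 differences at number 1 were 1.91 for *Ms4a1*, 1.88 for *Cr2*, 0.61 for *Cd79a* and 1.67 for *Cd79b*. The B cell genes were then between 0.61 and 1.91, where they had been between -0.82 and 3.12. At number 2 they were 0.60 for *Ms4a1*, 1.37 for *Cr2*, -1.47 for *Cd79a* and 0.23 for *Cd79b* (*Cd79a* alone below 0 among these 4). At number 3 the corrected differences still ran from 3.19 for *Cd3e* to 8.61 for *Cr2*, each above 0. An effect of genotype that runs with GC content is removed by this correction too.

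The make-up of the B sum, the summed counts of the 4 B cell genes, shows the same shift without any scaling between pools. *Cd79a* made up 33.0%, 19.4% and 9.82% of it in floxed and 5.13%, 1.61% and 0.978% in H3atKO pools. *Ms4a1* made up 22.9%, 25.5% and 31.3% in floxed and 54.9%, 54.8% and 67.7% in H3atKO pools. Neither share overlapped between the genotypes. Counts of *Ms4a1* per count of *Cd79a* went from 0.696 in floxed replicate 1, the pool with the highest *Cd79a*, to 69.2 in H3atKO replicate 3. Such ratios compare counts and not molecules, since the genes differ in length.

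The make-up of the T sum, from the 4 T cell genes, also shifted. *Cd3e* made up 15.1% to 17.2% of it in floxed and 4.32% to 8.12% in H3atKO pools. *Cd8a* made up 17.1% to 30.4% in floxed and 41.4% to 55.8% in H3atKO pools, while *Cd4* and *Cd3g* overlapped between the genotypes. After the GC correction, the log2 differences at numbers 1, 2 and 3 were 1.86, 1.59 and 6.19 for *Cd8a*. Those of *Cd4* were 1.91, 1.71 and 4.39, so that *Cd8a* exceeded *Cd4* at number 3 only. On uncorrected counts, *Cd3g* had 1.16 to 2.06 counts per count of *Cd3e* in floxed and 3.26 to 4.25 in H3atKO pools. These are subunits of one receptor complex, encoded close together on chromosome 9. With the GC correction, the differences of *Cd3g* at numbers 1, 2 and 3 were 1.93, 0.73 and 3.90. Those of *Cd3e* were 0.73, 0.60 and 3.19, so that *Cd3g* exceeded *Cd3e* least at number 2.

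**Figure D3:**
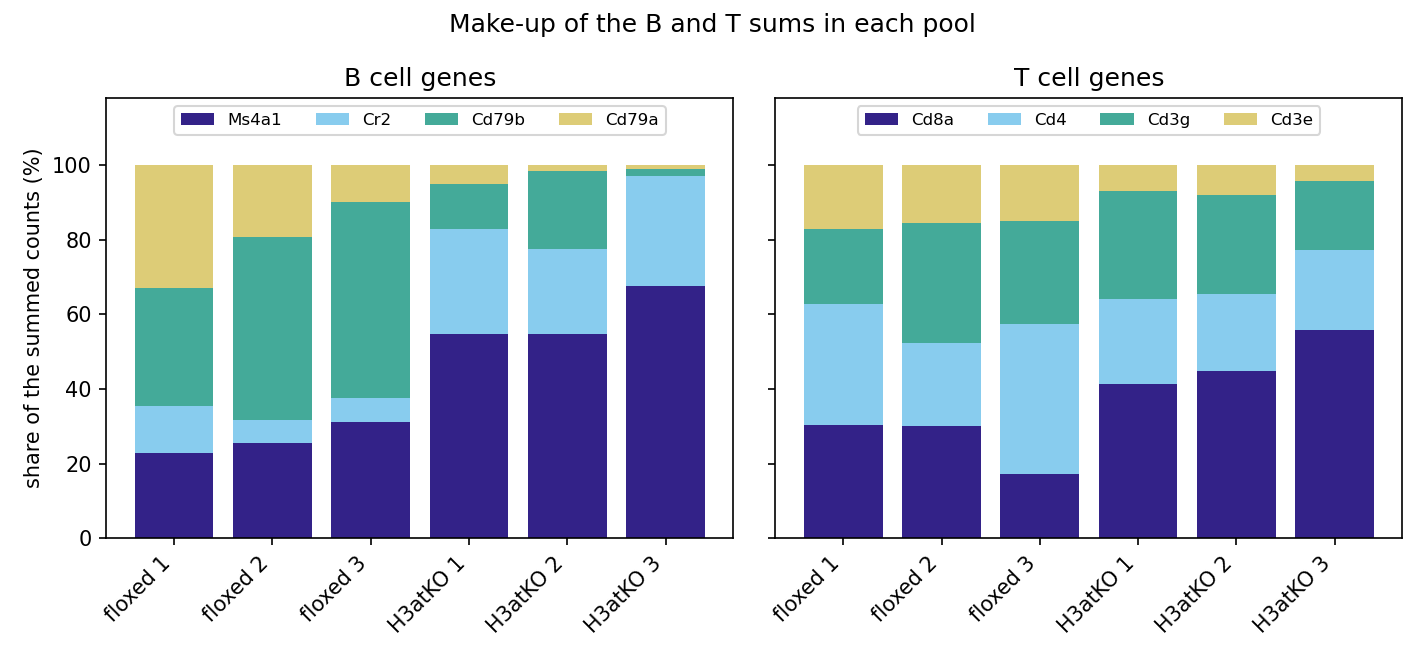
Share in percent of each gene in the summed counts of the 4 B cell genes (left) and of the 4 T cell genes (right), with 1 bar for each of 3 floxed and 3 H3atKO pools. *Cd79a* takes 9.82% to 33.0% of the B sum in floxed and 0.978% to 5.13% in H3atKO pools.

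Taken per kilobase of transcript, the order of the 9 genes differed by pool. In floxed replicate 1, *Cd79a* ranked highest at 16.2 RPKM and *Cr2* lowest at 1.44. In H3atKO replicate 3, *Ms4a1* ranked highest at 101.0 RPKM, *Cr2* was next at 21.7 and *Ccr7* was lowest at 2.65. In the low pools the T cell receptor chain *Cd3g* ranked first or second, at 0.95 to 3.09 RPKM.

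The B and T lineages were compared through their sums. The B sum was 71.6, 2.36 and 2.72 cpm in floxed and 261, 3.16 and 459 cpm in H3atKO pools. The T sum was 33.2, 4.95 and 3.55 cpm in floxed and 115.2, 11.9 and 95.1 cpm in H3atKO pools. The 3 pools with high sums held more B than T counts, with log2 ratios of T to B of -1.11 in floxed replicate 1, -1.18 in H3atKO replicate 1 and -2.27 in H3atKO replicate 3. The other pools held more T than B counts, at 1.07 and 0.38 in floxed replicates 2 and 3 and 1.92 in H3atKO replicate 2. With *Cd4*, *Cd8a* and *Cr2* left out, these were 0.09, -0.76 and 0.75, so that floxed replicate 3 then held more B counts. The pools with high sums kept more B than T counts, at -2.35, -2.18 and -3.91. The mean log2 ratio was 0.11 ± 1.12 in floxed and -0.51 ± 2.17 in H3atKO pools (SD, n = 3 each), a difference within the spread of the pools, and taken per length the means were 0.11 and 0.09.

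*Ptprc*, which encodes CD45 of all leukocytes, was at 58.0, 22.0 and 85.9 cpm in floxed and at 470, 66.0 and 765 cpm in H3atKO pools. Floxed replicate 3 therefore had more *Ptprc* than floxed replicate 1 and less of each of the 9 genes. *Cd79a* was at 40.7% of *Ptprc* in floxed replicate 1 and at 0.311% in floxed replicate 3. *Ms4a1* was at 28.3%, 30.5% and 40.6% of *Ptprc* in floxed replicate 1, H3atKO replicate 1 and H3atKO replicate 3, and between 0.990% and 2.74% in the other pools. Relative to *Ptprc*, *Ms4a1* was thus high in the same pools as before, whereas *Cd79a* was lower in H3atKO replicate 3, at 0.587%, than in floxed replicate 2, at 2.08%.

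Genes of the lymph node and of other cell types were listed to set beside the 9. Over all tested genes, 9.42% were called higher and 7.07% lower in H3atKO pools. Of the 13 calls in these lists, 1 (*Ackr3*) was also made after the GC correction, and the corrected estimates are given beside the others. *Glycam1*, a sulfated mucin that high endothelial venules secrete, was at 9.40, 0.0240 and 0.0486 cpm in floxed and at 23.4, 0 and 22.9 cpm in H3atKO pools. *Ccl21a* encodes a ligand of the *Ccr7* receptor made by T zone stroma, and it was also listed with the lymphatic endothelial genes. It was at 34.2, 0.529 and 0.681 cpm in floxed and at 12.4, 0 and 3.92 cpm in H3atKO pools. *Glycam1* and *Ccl21a* were both high in the same pools as the 9 genes. *Ccl19*, the other ligand of this receptor, was at 3.07, 0.0962 and 0.0243 cpm in floxed and at 0.741, 0 and 0.190 cpm in H3atKO pools. H3atKO replicate 2 had 0 counts of all 3 genes, which allows up to 0.153 cpm of each. These genes were named after their values were seen.

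*Cxcl13*, which draws B cells into follicles, had another pattern. It was at 16.8, 4.35 and 223 cpm in floxed and 125, 22.6 and 148 cpm in H3atKO pools, so that floxed replicate 3, a low pool for all 9 genes, was its highest. Of the 16 genes listed for lymph node stroma and high endothelial venules, 14 were tested and limma voom called 0, with 4 at an unadjusted p under 0.05 and with 2 higher and 1 lower by edgeR. Their median log2 fold change was 0.57, beside -0.09 over all tested genes, and their summed level was 478 to 711 cpm in floxed and 236 to 705 cpm in H3atKO pools. Of these 14, 7 were higher in floxed replicate 1, H3atKO replicate 1 and H3atKO replicate 3 than in the other pools. The most abundant on the list were *Enpp2*, *Vcam1*, *Cxcl13* and *Icam1*, of which *Enpp2*, *Vcam1* and *Icam1* are known from many tissues. *Vcam1* had a log2 fold change of 1.75 (adjusted p = 0.0514 from limma voom), and *Madcam1* and *Nkx2-3* were under the filter.

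**Figure D4:**
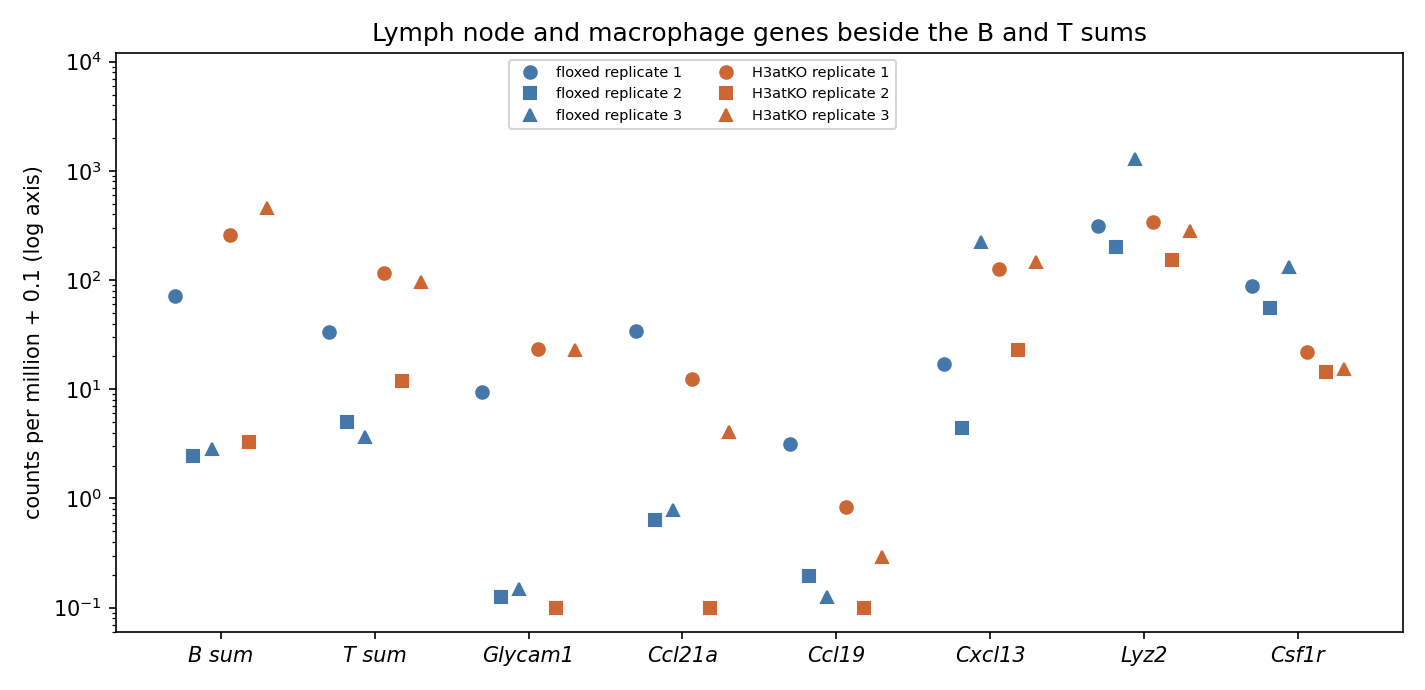
Expression in cpm with 0.1 added (log axis) of the summed B and T cell genes, of 4 lymph node genes and of the macrophage genes *Lyz2* and *Csf1r*, with 1 point for each of 3 floxed and 3 H3atKO pools. *Glycam1*, *Ccl21a* and *Ccl19* are high in the pools with high B and T sums, whereas *Cxcl13* and *Lyz2* are highest in floxed replicate 3.

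The genes by which lymphocytes enter and leave nodes include *S1pr1*, the receptor that guides lymphocytes out, and the factors *Foxp1* and *Klf2*. All 3 are abundant here, are also expressed by endothelial and other cells, and had log2 fold changes of 0.91, 0.42 and 0.32. Of the 10 genes of this list limma voom called 0, with 1 at an unadjusted p under 0.05 and 1 called higher by edgeR, and the median log2 fold change was 1.17. With the replicate block 4 were called higher and 2 lower, against 24.8% of all genes called higher and 53.5% called in either direction.

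Of 26 other B lineage genes tested, 21 had floxed replicate 1, H3atKO replicate 1 and H3atKO replicate 3 above the other pools. limma voom called 0 of them, with 1 at an unadjusted p under 0.05 and 1 called in each direction by edgeR, and the median log2 fold change was 1.57. Their summed level was 334 to 898 cpm in floxed and 216 to 850 cpm in H3atKO pools. *Cd74*, *Ebf1*, *Swap70* and *Bank1* were the most abundant. *Ebf1*, which adipocyte precursors also express, was at 148 to 209 cpm in floxed and 87.2 to 199.5 cpm in H3atKO pools, and *Cd74*, the invariant chain of all antigen-presenting cells, had a log2 fold change of -2.11 (adjusted p = 0.0620 from limma voom). With the replicate block, 6 of the 26 were called higher and 1 lower, against 24.8% of all genes called higher and 53.5% called in either direction.

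Among 16 immunoglobulin constant and plasma cell genes, limma voom called *Jchain* higher and *Sdc1* lower. *Jchain*, the joining chain of secreted IgM and IgA, was at 25.7, 4.21 and 8.77 cpm in floxed and 84.5, 47.9 and 121 cpm in H3atKO pools, and rose by 2.97 on the log2 scale (standard error 0.64, adjusted p = 0.0310), or by 1.84 after the GC correction (adjusted p = 0.134). *Sdc1*, a proteoglycan that plasma cells share with epithelia, fell by 1.87 on the log2 scale (adjusted p = 0.0320), and its corrected estimate was -0.59 (adjusted p = 0.238). H3atKO replicate 2 was well above every floxed pool for *Jchain*, although it had a single count of *Cd79a*. *Ighm*, *Igkc*, *Xbp1* and *Irf4*, the most abundant of the list, were not called, with log2 fold changes of 0.38, 0.52, -0.60 and 2.39. Without floxed replicate 2, H3atKO replicate 1 or H3atKO replicate 3, limma voom called 0 genes of any list in either direction. These fits called few of all tested genes, with 1, 199 and 87 higher and 0, 47 and 20 lower.

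Of 30 other T lineage genes, *Trac* and *Cd40lg* were called higher in H3atKO pools and 0 lower, with a median log2 fold change of 2.33. *Trac*, the constant region of the T cell receptor alpha chain, was at 9.09, 1.39 and 0.753 cpm in floxed and 21.6, 13.3 and 17.8 cpm in H3atKO pools, which did not overlap. It rose by 3.00 on the log2 scale (standard error 0.79, adjusted p = 0.0437 from limma voom), with a corrected estimate of 2.80 (adjusted p = 0.0806). *Cd40lg*, the ligand by which helper T cells activate B cells, rose by 3.72 on the log2 scale (adjusted p = 0.0493) from at most 0.417 cpm in floxed to between 0.816 and 3.75 cpm, with a corrected estimate of 3.11 (adjusted p = 0.103). *Trbc1*, *Trbc2*, *Cd28* and *Il7r*, the most abundant, had log2 fold changes of 2.73, 2.73, 3.14 and 3.38 and adjusted p from 0.0711 to 0.131. The summed level of the list was 27.9 to 159 cpm in floxed and 59.2 to 757 cpm in H3atKO pools. In it 23 genes were higher in the 3 pools than in the others, and with the replicate block 21 of the 30 were called higher, against 24.8% of all genes.

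Of 15 macrophage genes, 0 had this order of pools, and *Csf1r*, *C1qa*, *C1qb* and *C1qc* were called lower in H3atKO pools, with log2 fold changes from -3.47 to -1.96 and a list median of -1.10. After the GC correction the median was -0.54, and the estimates were -1.25 for *Csf1r*, -0.54 for *C1qa*, -1.72 for *C1qb* and -0.18 for *C1qc*, with adjusted p from 0.178 to 0.877. Their summed level was 571 to 2666 cpm in floxed and 437 to 744 cpm in H3atKO pools. *Lyz2* was at 311, 202 and 1277 cpm in floxed and at 338, 154 and 283 cpm in H3atKO pools. The log2 fold changes of the other abundant genes were 0.35 for *Mrc1*, -1.10 for *Cd163* and -0.13 for *Mertk*. Of 12 natural killer and innate lymphoid genes tested, *Klrk1* was called higher (log2 fold change 2.42, adjusted p = 0.0315, or 1.46 and adjusted p = 0.0694 after the GC correction). The order of pools was seen for 5 of the 14 genes listed, which include genes under the filter. *Klrd1*, *Ccl5* and *Il1rl1* were not called.

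Among 15 dendritic cell genes, *Xcr1* and *Clec9a*, both of the cross-presenting type, rose with log2 fold changes of 2.90 (adjusted p = 0.0348) and 2.69 (adjusted p = 0.0301). After the GC correction these were 1.98 (adjusted p = 0.0735) and 2.02 (adjusted p = 0.0548). The list as a whole went both ways, with a median of 0.0016, 2 genes called higher and 2 lower by edgeR, and 4 higher and 5 lower with the replicate block. That block called 24.8% of all genes higher and 53.5% in either direction. The class II genes *H2-Aa*, *H2-Ab1* and *H2-Eb1* and the factor *Zbtb46* were the most abundant and were not called, and 2 of the 15 genes had the order of pools. The 12 pan-leukocyte genes had 0 calls by limma voom, 2 at an unadjusted p under 0.05 and 2 called higher by edgeR, and a median log2 fold change of 0.68, with values of 2.59 for *Ptprc*, 0.65 for *Lcp1*, 1.85 for *Cd53* and -0.32 for *Arhgdib*.

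In the list of lymphotoxin and lymphoid chemokine signalling, which builds and maintains nodes, 0 of 20 genes were called higher, by limma voom or by edgeR. The receptors *Tnfrsf1a* and *Ackr3* fell by 1.98 (adjusted p = 0.0405) and 1.49 (adjusted p = 0.0330) on the log2 scale, and the median was -0.42. After the GC correction the median was 0.77, and the estimates were -0.55 for *Tnfrsf1a* (adjusted p = 0.106) and -1.52 for *Ackr3* (adjusted p = 0.0292). Both receptors are known from many cell types besides lymphocytes. *Cxcl12* and *Cxcl13*, the other abundant genes of the list, had log2 fold changes of -0.16 and 1.56.

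Skeletal muscle genes varied widely between pools. The summed skeletal muscle genes were at 1226, 748 and 3099 cpm in floxed and at 529, 4799 and 17.0 cpm in H3atKO pools, with 0 of 8 called by limma voom or edgeR and 4 at an unadjusted p under 0.05, and *Myh4*, *Ttn*, *Tnnt3* and *Acta1* led them. Muscle was highest in H3atKO replicate 2 and floxed replicate 3, which were low for the 9 genes, and its part in their values was not tested. The summed adipocyte genes were between 13678 and 29401 cpm, with 0 of 8 called by limma voom, 1 called lower by edgeR and 2 at an unadjusted p under 0.05, *Fabp4*, *Adipoq*, *Cidec* and *Retn* being the most abundant. Of 9 mammary epithelial genes, *Krt18* and *Epcam* passed the filter and neither was called. Lymphatic endothelial genes, led by *Lyve1*, *Pdpn*, *Mmrn1* and *Reln*, had 0 of 7 called and a median of -0.28, and proliferation genes, led by *Mki67*, *Top2a*, *Cdk1* and *Ccna2*, had 0 of 10 called and a median of 0.65. edgeR and an unadjusted p under 0.05 also gave 0 for these last 3 lists.

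The genes most like the 9 were found by Pearson's r of log2 cpm over the 6 pools, as a description, since all 6 share depth and GC effects and fall into high and low pools. For the mean of the B cell genes, the 8 closest were *Rasal3*, *Fcer2a*, *Siglecg*, *Traf3ip3*, *Gimap1*, *H2-DMb2*, *Ighd* and *Spn*, with r from 0.989 to 0.998. *Ighd*, the constant region of IgD on naive B cells, was at 56.9, 4.06 and 4.59 cpm in floxed and 287, 3.67 and 258 cpm in H3atKO pools. For the mean of the T cell genes, the 8 were *Trbc2*, *Apol7c*, *Gimap3*, *Zfp831*, *Tcf7*, *Itgal*, *Skap1* and *Ikzf3*, with r from 0.986 to 0.995. For *Ccr7* the 8 included *Pim2*, *Gpr132*, *Cd79b*, *Gimap1*, *Siglecg*, *H2-DMb2* and *Cd22*, with r from 0.984 to 0.999, so that 1 of the 8 was itself among the 9 and was of the B lineage. An r over 0.95 was reached by 0.463%, 0.360% and 0.326% of the ranked genes for the B mean, the T mean and *Ccr7*.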

How the data were processed

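IngWAT RNA was sequenced as poly(A)-selected stranded libraries. The authors trimmed reads with Cutadapt 1.3, aligned them to GRCm38 with STAR 2.4.2a, assigned them to Ensembl genes with HTSeq 0.6.1 and deposited the raw read counts per gene. The 5 tally lines of each file were left out. Symbols and transcripts came from GENCODE M21 (46005 of 46517 identifiers matched). The 14967 genes that reached 1 cpm in 1 or more pools were tested with limma 3.58.1 voom on TMM factors (edgeR 4.0.16, R 4.3.3), with Benjamini-Hochberg adjustment over all tested genes and a call at 0.05. The fits were tested on simulated data.

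The 9 genes and all lists were chosen with earlier results of these data known. Named were the 9 genes, *Hdac3*, the 4 most abundant genes of each list, its calls where it had 5 or fewer, and the 8 genes with the highest r among those with a mean of at least 1 log2 cpm. Some genes that this rule names are not reported here.

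Same-numbered pools deviated together (r = 0.510, 0.389 and 0.264 across genes), so the number was also used as a block. For the GC correction, chosen after the data had been seen in its form on protein-coding transcripts, a loess curve on GC content (span 0.3) was subtracted from each pool's log2 values. Intervals and floors cover counting error only.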

Additional observations from a re-analysis of the deposited data

How the results depend on the processing

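Of the 9 genes, 0 were called in the comparison as reported, 3 with DESeq2 1.42.0, 5 with the replicate block, 5 with sample quality weights, 3 with the replicate block and GC correction, 4 when that correction used protein-coding transcripts, and 0 to 3 when single pools were left out. Library sizes alone, RLE factors, no filter, no mitochondrial genes and the GC correction alone gave 0, as did at least 10 counts in every sample, which 6 of the 9 passed. The cause was not tested. *Cd79a* reversed from 0.21 to -0.44 with edgeR, -0.39 with DESeq2, -0.83 with library sizes alone, -0.16 with the replicate block and down to -1.51 when single pools were left out (range -1.51 to 2.37, with -0.62 and -0.97 without floxed replicates 2 and 3 and -0.31 without H3atKO replicate 3). *Cd79b* reversed from 0.79 to -0.16 with library sizes alone and to -0.56 without H3atKO replicate 1 (range -0.56 to 2.31 with single pools left out). The other 7 genes kept their direction under all alternatives run.

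Over all genes, 1410 were called up and 1058 down. The numbers called down were 2749 with edgeR and 1864 with at least 10 counts, and the numbers up and down were 2935 and 3465 with DESeq2, 306 and 5667 with library sizes alone, 3717 and 4290 with the replicate block, 4003 and 4440 with quality weights, 830 and 458 with the GC correction, 802 and 468 with its protein-coding form, and 1 to 2729 and 0 to 3828 with single pools left out. Over the lists, 6 were called up and 7 down, against 18 and 13 with edgeR, 37 and 22 with DESeq2, 3 and 40 with library sizes alone, 13 down with at least 10 counts, 60 and 28 with the replicate block, 60 and 24 with quality weights, 2 and 2 with either GC correction, 49 up with the block and GC correction, 47 up with its protein-coding form, and 0 to 23 in each direction with single pools left out.

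Of the 8 genes closest to the B mean, 4 were kept with library sizes alone and 3 when genotype means were removed. For the T mean 0 were kept in the latter case, although the 8 genes still had r from 0.983 to 0.993 with it. For *Ccr7* 3 were kept with library sizes alone and 2 when genotype means were removed. The log2 ratio of T to B counts stayed within 1 SD, at differences between genotypes of -0.63 as reported and -0.77 to -0.02 otherwise. The median level of the 9 genes relative to *Ptprc* differed by -0.32 between the genotypes, and by 1.05 relative to the summed pan-leukocyte genes, so its direction rests on the reference. Depth limits the low pools most, where *Cd79a* rests on 1 to 19 counts.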
